A study of Drosophila melanogaster with 6 samples.

Results

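Short exon bins of the kind that a choice between neighbouring 5′ splice sites leaves behind were followed in the indirect flight muscle (IFM) of WT, SF1-IR and Hrb87F-IR flies. When the exons of all transcripts of a gene are laid over each other, every start or end cuts the exon at that base, and the pieces are its exon bins. The deposited exon table held 77774 bins in 16428 genes. A bin was taken if it was 3 to 60 nt wide, was neither the first nor the last bin of its gene, adjoined another bin of the gene on its 5′ side with no gap, and was followed on its 3′ side by a gap of 30 nt or more, which is intron. Of 1071 bins with this shape, 638 bins in 580 genes had at least 10 counts in at least 2 of the 6 libraries. The other 433 did not, and 87 of those had no count at all. A single short bin was found in 530 of the genes, a pair in 44, and 3 or 4 in the remaining 6.

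The libraries were made from poly(A) RNA of IFM dissected at 72 h after puparium formation (APF) from flies grown at 27 °C, with 2 libraries in each of 3 groups. All flies carried the driver Mef2-Gal4, which is active in every muscle and not only in IFM. WT was Mef2-Gal4 over a plus chromosome, SF1-IR was Mef2-Gal4 with SF1-RNAi (GD5176), and Hrb87F-IR was Mef2-Gal4 with Hrb87F-RNAi (TRiP.JF01757), so each knockdown rests on a single hairpin line. IFM of many flies was pooled for each library, and whether the replicates were separate crosses is not stated, so the p-values measure only the spread between these libraries. Each library held 63393347 to 72057010 exon-bin counts, of which the short bins took 0.641% to 0.704%.

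Splicing removes an intron after the U1 snRNP has paired with the 5′ splice site, or donor, at the end of the upstream exon, while SF1 binds the branch point near the 3′ splice site, or acceptor. Hrb87F is a fly hnRNP of the A family, RNA-binding proteins that influence the choice of splice sites. Where donors lie close together, use of the one nearer to the exon body (proximal) leaves a short stretch out of the mRNA and use of the farther one (distal) keeps it in. That stretch is the short bin, and its 5′ neighbour is the part of the exon that both choices retain. Counts of a short bin were read in 2 ways. The first was exon use, the change of a bin relative to its whole gene. The second was the count of the bin against that of its 5′ neighbour, which sets the rest of the gene aside.

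The targeted genes were measured first. SF1 was at 25.3 and 29.4 CPM (exon-bin counts scaled by library size and TMM factors) in the WT libraries, at 25.4 and 20.1 CPM in SF1-IR and at 30.8 and 31.0 CPM in Hrb87F-IR. The SF1-IR and WT values overlapped, and the log2 difference between the groups was -0.28, with a standard error of 0.17 (Benjamini-Hochberg adjusted p = 0.473, quasi-likelihood test of edgeR). Hrb87F was at 30.6 and 30.0 CPM in WT, 26.0 and 29.9 CPM in SF1-IR, and 14.3 and 17.9 CPM in Hrb87F-IR. Both Hrb87F-IR libraries lay below the others, at a log2 fold change of -0.87 (standard error 0.13, adjusted p = 0.0347), which is not past the gene threshold of 0.01. In these bulk samples fewer cells of a type and less RNA per cell cannot be told apart. Flight muscle genes dominated every library: 7 marker genes (Act88F, fln, Mhc, sls, TpnC4, Prm and Mf) summed to 182298 and 197508 CPM in WT, 130890 and 137493 CPM in SF1-IR, and 129643 and 117498 CPM in Hrb87F-IR. The sum of 3 neuron genes was 281 and 281 CPM in WT, 381 and 315 CPM in SF1-IR, and 351 and 365 CPM in Hrb87F-IR. Both sums separated WT from the other groups, and their part in the results was not tested. The summed level of 4 testis genes, betaTub85D, Mst87F, dj and ocn, was 68.9 CPM in WT replicate 1 and 56.1 CPM in SF1-IR replicate 2, against 2.32 to 13.6 CPM in the other libraries; its part in the results was not tested.

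The annotation bore out the label for most of the short bins, but not for all. In the BDGP6.54 gene models, 469 of the 638 bins (73.5%) had an annotated donor at both ends and are called donor pairs here. Another 98 began at an annotated acceptor, so that the neighbour before them is sequence 5′ of an acceptor rather than the body of the same exon. A transcript start lay at the first base of 51 bins, a transcript ended just before 9, 6 had no annotated donor at their 3′ end, and the genes of 5 were not in the annotation. The authors' positions are on BDGP6.22, an earlier release of the same assembly, and 98.6% of the 46917 bin ends before a gap in the whole table fell on a donor of BDGP6.54. The bins lay on chromosome arms 3R (137), 3L (126), 2L (119), 2R (119), X (117) and on chromosome 4 (20). Exons of another gene on the opposite strand overlapped 23 of them.

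**Figure D1:**
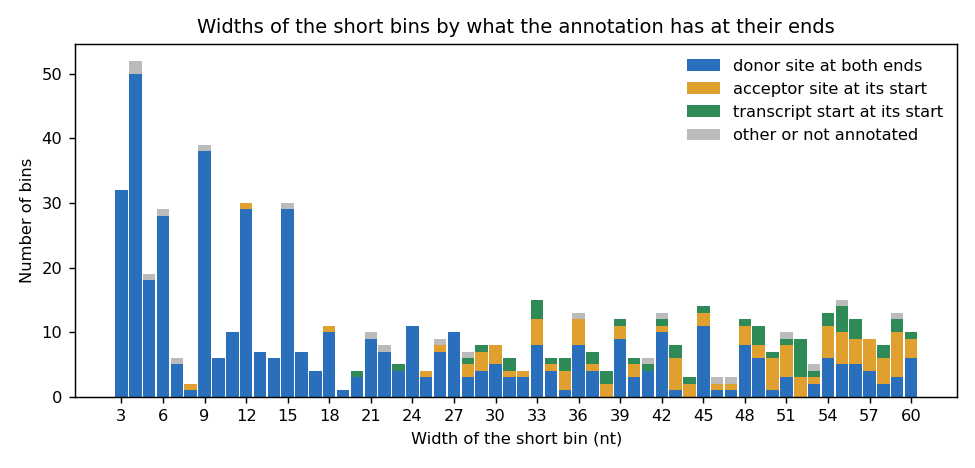
Number of short bins (y axis) at each width in nt (x axis), stacked by what the annotation has at the ends of the bin. The 4-nt bins are the tallest bar, with 52 bins, and the bins that start at an acceptor or a transcript start lie mostly above 30 nt.

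The donors of a pair lay 3 to 60 nt apart, and short distances were the most frequent. The width had a median of 15 nt (quartiles 6 and 32 nt), and 128 of 469 were 3 to 6 nt wide. The most common width was 4 nt, with 50 pairs, followed by 9 nt (38), 3 nt (32), 12 nt (29), 15 nt (29) and 6 nt (28). In coding sequence, 196 of 242 donor pairs (81.0%) were a multiple of 3 wide, so that moving between the donors would leave the reading frame as it is. Among 212 pairs in 5′ untranslated regions (5′UTR) only 75 (35.4%) were a multiple of 3. The 4-nt pairs numbered 30 in 5′UTR and 17 in coding sequence. The intron after a donor pair had a median length of 233 nt, was under 100 nt for 157 pairs and over 1000 nt for 106. Only 1 annotated transcript used the distal donor in 245 of the pairs. The plot of widths shows the steps at multiples of 3 up to 15 nt.

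Among donor pairs selected for counts in the short bin, most had reads beyond the proximal donor. That selection left out pairs whose distal donor was hardly used, so the shares below do not describe all donor pairs. For 388 pairs with a mean of at least 10 counts in both bins, each count was divided by the width of its bin plus the read length less 1 nt, and the short bin was set against its neighbour. A ratio near 1 means that as many reads covered the short bin as the exon body beside it. The upper quartile was 1.18 to 1.26 across the libraries, and ATPsynD E002 was at 5.70 to 9.21. With values above 1, the ratio is not the share of transcripts that used the distal donor. The median ratio was 0.811 and 0.812 in the WT libraries, 0.780 and 0.808 in SF1-IR, with 0.805 and 0.814 in Hrb87F-IR, so the medians did not separate the groups. In the WT libraries 30 and 32 pairs were under 0.1 and 261 and 262 were over 0.5. In SF1-IR 17 and 21 pairs were under 0.1, and in Hrb87F-IR 24 and 24. These counts were not tested, and the same count over all adjoining pairs is not given here, so no group difference is read from them. By the WT mean, 169 pairs in 5′UTR had a median of 1.05 and 204 coding pairs a median of 0.722. Where more annotated transcripts used the proximal donor the median was 0.281 (81 pairs), and where more used the distal donor it was 0.970 (143 pairs). The log2 ratio of bin to neighbour differed between the 2 libraries of a group by a median of 0.29 in WT, 0.27 in SF1-IR and 0.28 in Hrb87F-IR.

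**Figure D2:**
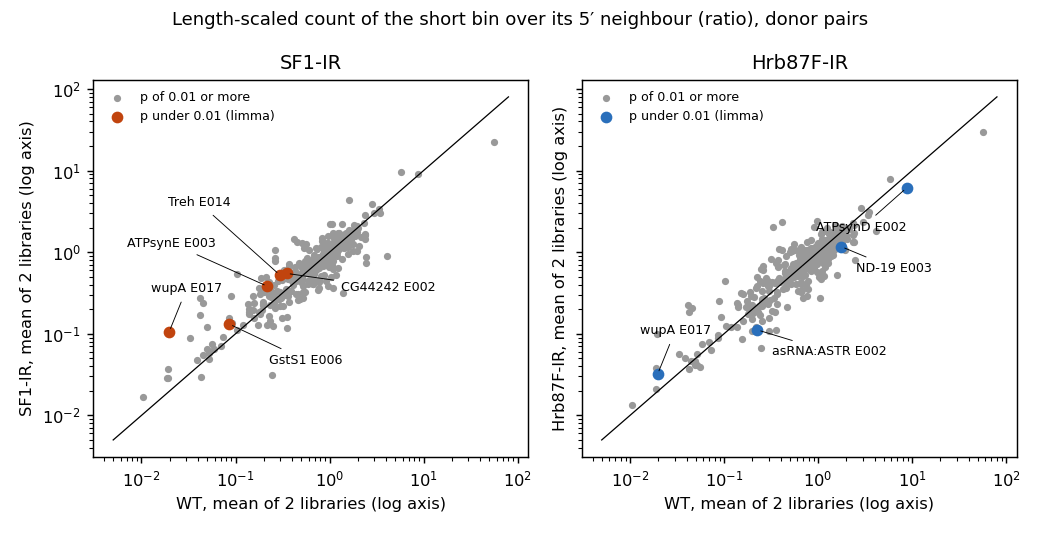
Length-scaled count of the short bin over that of its 5′ neighbour in 388 donor pairs, with the mean of the 2 WT libraries on the x axis and the mean of the 2 knockdown libraries on the y axis, both on log axes; the line marks equal values and coloured points passed an unadjusted p under 0.01 by limma. wupA E017 stands farthest above the line among the coloured points of the SF1-IR panel, and 5 pairs are coloured there and 4 in the Hrb87F-IR panel.

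The first comparison asked which short bins differed in use between the libraries labelled SF1-IR and WT; a lower level of SF1 itself was not detected, as given above. In SF1-IR against WT, 9 of the 625 short bins that could be tested had an unadjusted p under 0.01, the threshold of the study, 8 of them higher and 1 lower. That is 1.44% of the bins tested, beside 0.972% of all 53818 bins in the same fit, of which 0.645% were higher and 0.327% lower. After Benjamini-Hochberg adjustment over all bins, 5 short bins were under 0.05, beside 0.342% of all bins. The median log2 change was 0.01 over the short bins and 0.00 over all bins, and the median size of the change, regardless of sign, was 0.29 and 0.21. Short bins from alternative 3′ splice sites (18 of 1092 called, 1.65%) and microexons (16 of 900, 1.78%) gave shares of the same order.

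The change with the lowest p of all short bins was in wupA, which encodes troponin I, the inhibitory subunit of the troponin complex on the thin filament. wupA E017 is 5 nt wide (chrX:18114606-18114610, minus strand), lies in the 5′UTR between annotated donors, and follows the 36-nt bin E018. It had 790 and 749 counts in WT, 3362 and 2443 counts in SF1-IR, and 1030 and 1069 counts in Hrb87F-IR. Its neighbour E018 went from 51577 and 42933 counts in WT to 36330 and 29299 counts in SF1-IR, so the 5-nt bin stood at 1.53% and 1.74% of its neighbour in WT, 9.25% and 8.34% in SF1-IR, with 2.698% and 2.64% in Hrb87F-IR. The 3 groups did not overlap. In SF1-IR the use of E017 rose by a log2 change of 2.31 (standard error 0.19, adjusted p = 3.5e-14 by edgeR), while that of E018 changed by -0.13 (unadjusted p = 0.468). The distal donor is annotated in 2 transcripts and the proximal one in 11. The gene as a whole was at a log2 fold change of -0.69 (adjusted p = 0.0155).

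Among the other called donor pairs in SF1-IR, 4 shifted in the same direction against their neighbours. ATPsynE encodes a subunit of the mitochondrial ATP synthase; its 56-nt 5′UTR bin E003 (chr3R:14327128-14327183, plus strand) stood at 23.0% and 19.9% of its neighbour in WT, 36.7% and 38.2% in SF1-IR, with 17.6% and 19.6% in Hrb87F-IR. Its use rose by 0.75 (standard error 0.12, adjusted p = 0.0475 by edgeR); the SF1-IR libraries lay above the WT libraries and the Hrb87F-IR libraries below them. GstS1 E006, 12 nt of coding sequence of a glutathione S-transferase (chr2R:17094517-17094528, minus strand), stood at 4.42% and 4.28% of its neighbour in WT, 6.64% and 6.73% in SF1-IR, with 4.93% and 4.85% in Hrb87F-IR. Its use rose by 0.75 (standard error 0.18, adjusted p = 0.0585). Treh E014, 5 nt in the 3′UTR of the trehalase gene (chr2R:21087854-21087858, plus strand), stood at 21.2% and 19.7% in WT, 40.03% and 33.1% in SF1-IR, with 26.1% and 27.5% in Hrb87F-IR. CG44242 E002, 30 coding nt (chr2R:16196573-16196602, plus strand), stood at 19.7% and 17.4%, 28.3% and 29.9%, and 21.4% and 23.2% in the same order. Use rose by 0.87 for Treh E014 (standard error 0.20, adjusted p = 0.192) and by 0.64 for CG44242 E002 (standard error 0.16, adjusted p = 0.497). In these 4 pairs both SF1-IR libraries lay above both WT libraries. The call in use was lost without 1 library for CG44242 E002 (WT replicate 2 or SF1-IR replicate 2), Treh E014 (SF1-IR replicate 1, unadjusted p = 0.0522) and GstS1 E006 (WT replicate 2, unadjusted p = 0.0125), and for GstS1 E006 also under the DESeq2 model of DEXSeq (0.734).

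**Figure D3:**
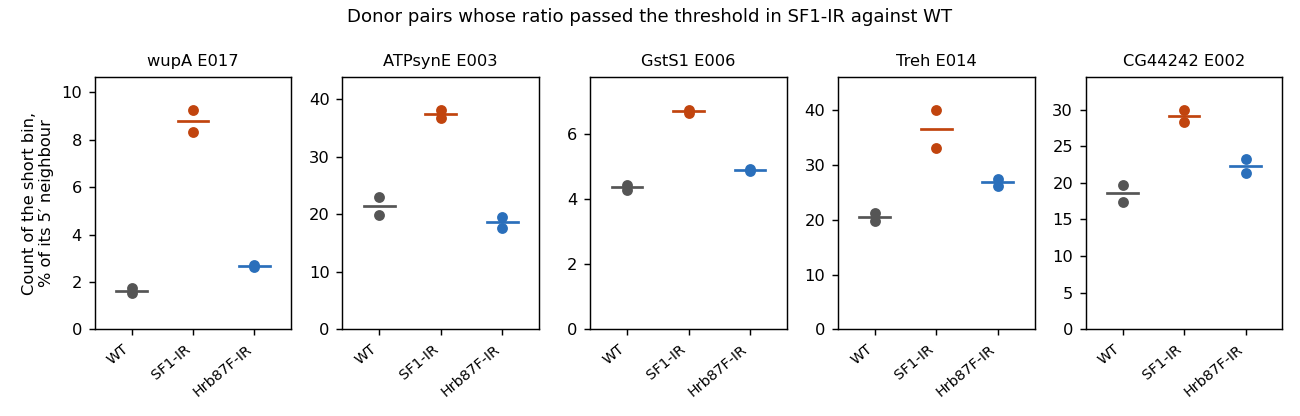
Count of the short bin as a percentage of the count of its 5′ neighbour (y axes, starting at 0, one scale per panel) in each library of WT, SF1-IR and Hrb87F-IR for 5 donor pairs; points are libraries and bars the mean of 2. In every panel both SF1-IR points lie above both WT points, as at 9.25% and 8.34% against 1.53% and 1.74% for wupA E017.

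In 3 other called bins the neighbour changed in use as well. Tm1, a tropomyosin gene, held a pair of them. Tm1 E006, 4 nt in a 5′UTR between annotated donors (chr3R:15281854-15281857, plus strand), had 54 and 101 counts in WT, 310 and 242 counts in SF1-IR, and 87 and 64 counts in Hrb87F-IR. Its use rose by 1.99 in SF1-IR (standard error 0.43, adjusted p = 0.00465 by edgeR) and that of its neighbour E005 by 1.23 (unadjusted p = 6.29e-08). The ratio of the 2 bins differed by a log2 change of 0.84 (standard error 0.38, unadjusted p = 0.0728 by limma), which did not pass. Under the DESeq2 model of DEXSeq Tm1 E006 was not called (unadjusted p = 0.342). Tm1 E020, 28 coding nt that begin where another transcript ends (chr3R:15295517-15295544, plus strand), had 1104 and 1381 counts in WT, 2669 and 2066 counts in SF1-IR, and 1605 and 1732 counts in Hrb87F-IR. Its use rose by 1.11 (standard error 0.21, adjusted p = 0.000328) together with a rise of 1.18 of its neighbour E019. It stood at 61.1% to 64.7% of that neighbour in all 6 libraries.

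ND-ACP, which encodes the acyl carrier protein of respiratory complex I, gave the same picture. Its bin E004, 15 coding nt (chr3L:1330950-1330964, plus strand), had 6319 and 4891 counts in WT, 6262 and 9388 counts in SF1-IR, and 5032 and 5475 counts in Hrb87F-IR. The bin was covered almost exactly as its neighbour E003, at 94.3% to 102% of its count in every library. Use rose by 0.72 for E004 (standard error 0.16, adjusted p = 0.0461 by edgeR) and by 0.69 for E003, so these bins moved together relative to the gene and not relative to each other. The only called bin that was lower, CG11807 E002 (54 nt, 5′UTR, chr2R:15201320-15201373, plus strand), had 17 and 12 counts in WT, 1 and 0 counts in SF1-IR, and 40 and 21 counts in Hrb87F-IR. Against the library totals the WT level was 28.2 times that of SF1-IR, with a 95% exact binomial interval of 4.67 to 1150 that covers counting error only (adjusted p = 0.874 by edgeR). This call was lost when any of WT replicate 1, the SF1-IR libraries or the Hrb87F-IR libraries was left out, at unadjusted p of 0.0103 to 0.0663. The 5′ neighbour of CG11807 E002 had 0 to 3 counts per library, too few for the ratio to be tested.

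**Figure D4:**
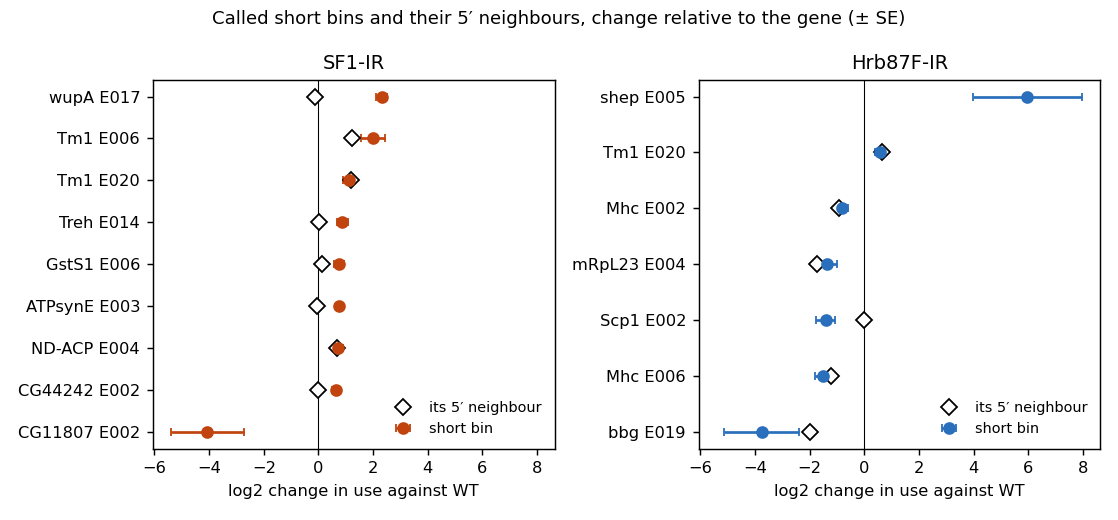
Log2 change in use against WT (x axis) of the short bins with an unadjusted p under 0.01 (filled circles, bars ± standard error) and of their 5′ neighbours (open diamonds), in SF1-IR on the left and Hrb87F-IR on the right; neighbours that were not tested are not drawn. For wupA E017 the bin is at 2.31 and the neighbour at -0.13, whereas for Tm1 E020 and ND-ACP E004 the 2 symbols nearly coincide.

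The ratio to the neighbour was then tested for every pair of adjoining bins. In SF1-IR against WT, 10 of the 508 short bins with enough counts passed an unadjusted p under 0.01 (1.97%), beside 3.54% of all 7879 pairs, so the share was below that of the whole table. The 5 that rose were the donor pairs in wupA, ATPsynE, GstS1, Treh and CG44242. The ratio rose by 2.43 for wupA E017 (standard error 0.15, adjusted p = 0.00441 by limma with Benjamini-Hochberg adjustment), 0.81 for ATPsynE E003, 0.62 for GstS1 E006, 0.83 for Treh E014 and 0.65 for CG44242 E002, the last 4 with adjusted p of 0.0861 to 0.189. Leaving out 1 library ended the call of CG44242 E002 in all 6 cases, of Treh E014 in 5, and of ATPsynE E003 and GstS1 E006 without WT replicate 2 (unadjusted p = 0.0113 and 0.0114), while wupA E017 was called in every one.

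The 5 that fell all began at an annotated acceptor, and in each of them the neighbour, which lies 5′ of that acceptor, gained counts relative to the short bin. Of the 74 tested bins of that kind, 5 were called in SF1-IR (6.76%, beside 3.54% of all pairs), none of them higher, and the median log2 change was -0.07 over the 74 and -0.03 over all pairs. In RpL37A, a ribosomal protein gene, E004 (55 nt, chr2L:5071103-5071157, plus strand) had 9837 and 8512 counts in WT and 9690 and 9729 in SF1-IR, while the 72-nt neighbour E003 had 55 and 51 counts in WT, 332 and 268 in SF1-IR, with 41 and 37 in Hrb87F-IR. The neighbour was thus at 0.559% and 0.599% of the short bin in WT, at 3.43% and 2.75% in SF1-IR, and at 0.559% and 0.463% in Hrb87F-IR. The ratio fell by 2.40 (standard error 0.16, adjusted p = 0.00447). RpL37A E004 is one of the bins with an exon of another gene on the opposite strand, and the strand setting of the counting is not given in the sources used here.

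RpL29 and RpS15Aa, also ribosomal protein genes, also had the SF1-IR libraries highest. The neighbour of RpL29 E003 (25 nt, 5′UTR, chr2R:21293850-21293874, plus strand) was at 5.68% and 4.23% of the short bin in WT, 12.8% and 12.4% in SF1-IR, with 3.92% and 5.17% in Hrb87F-IR. The ratio fell by 1.36 (standard error 0.20, adjusted p = 0.0539 by limma). The neighbour of RpS15Aa E003 (35 nt, 5′UTR, chrX:13337505-13337539, minus strand) had 5 and 18 counts in WT, 105 and 140 counts in SF1-IR, and 15 and 8 counts in Hrb87F-IR, and the ratio fell by 3.59 (standard error 0.61, adjusted p = 0.0897). RpS15Aa has a close paralog, so reads may have been divided between copies, and without SF1-IR replicate 1 its unadjusted p was 0.0102. The short bins themselves kept their use: the log2 changes were 0.04 for RpL37A E004, -0.01 for RpL29 E003 and 0.01 for RpS15Aa E003 (unadjusted p of 0.813 to 0.963 by edgeR).

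The other 2 were sarcomere genes. Mf encodes Myofilin, a thick filament protein, and the neighbour of its E013 (49 nt, chr3R:15176364-15176412, minus strand) was at 29.7% and 35.0% of the short bin in WT, 53.5% and 55.7% in SF1-IR, with 46.8% and 53.3% in Hrb87F-IR. Both knockdowns lay above WT, with a ratio that fell by 0.76 in SF1-IR (standard error 0.13, adjusted p = 0.0897) and by 0.63 in Hrb87F-IR (standard error 0.13, adjusted p = 0.350). TpnC4 encodes a troponin C of flight muscle, and its E005 (58 nt, chr2R:5507684-5507741, minus strand) differed between the knockdowns. The neighbour was at 43.0% and 42.2% of the short bin in WT, 64.8% and 53.5% in SF1-IR, with 29.1% and 29.4% in Hrb87F-IR. The ratio fell by 0.47 in SF1-IR (standard error 0.11, adjusted p = 0.217) and was 0.54 higher in Hrb87F-IR (standard error 0.11, adjusted p = 0.350), and between the knockdowns the ratio was 1.01 lower in SF1-IR, a log2 difference of -1.01 (standard error 0.11, adjusted p = 0.0215 by limma). Without WT replicate 1 neither the Mf nor the TpnC4 ratio was called in either knockdown (unadjusted p of 0.0113 to 0.0312), and the TpnC4 calls were also lost without WT replicate 2 (0.0384 in SF1-IR and 0.0190 in Hrb87F-IR), without either Hrb87F-IR library (0.0156 to 0.0199), and the Mf call in Hrb87F-IR without Hrb87F-IR replicate 2 (0.0236).

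**Figure D5:**
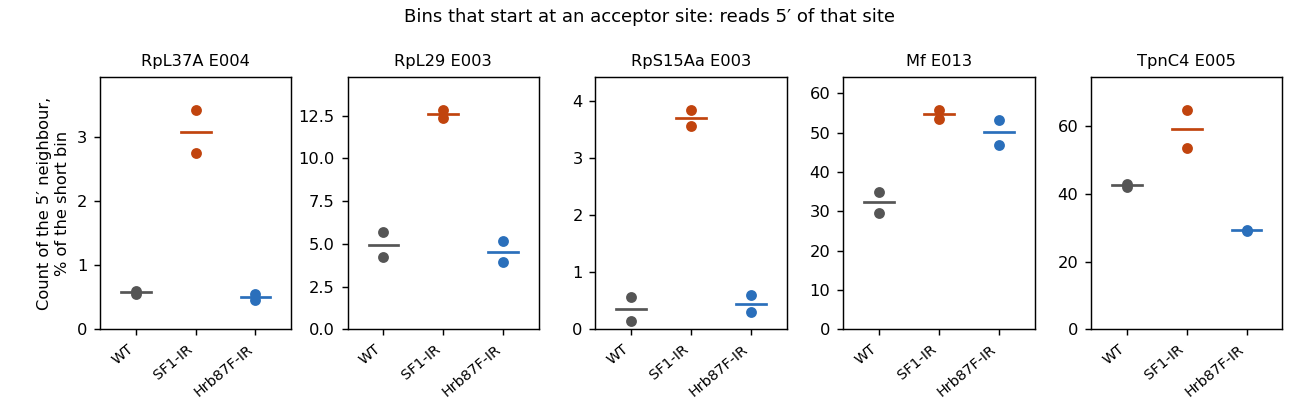
Count of the 5′ neighbour, which lies 5′ of an annotated acceptor, as a percentage of the count of the short bin (y axes, starting at 0, one scale per panel) in each library, for the 5 bins whose ratio fell in SF1-IR; points are libraries and bars the mean of 2. The SF1-IR points are the highest in every panel, and the Hrb87F-IR points lie clearly above the WT points only for Mf E013.

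The second comparison asked the same of Hrb87F. In Hrb87F-IR against WT, 7 of 625 short bins passed an unadjusted p under 0.01 in use (1.12%), beside 0.656% of all bins; 2 were higher, beside 0.236% of all bins, and 5 were lower, beside 0.42%. Only 1 was under an adjusted p of 0.05, beside 0.091% of all bins. Of the 7, 3 were donor pairs, and all 3 were lower. The median size of the change was 0.33 over the short bins and 0.23 over all bins. Without Hrb87F-IR replicate 2 the count of called short bins was 2.

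Mhc, the single gene for the muscle myosin heavy chain, held 2 of the lower bins, both in its 5′UTR. Mhc E006, 5 nt between annotated donors (chr2L:16767955-16767959, plus strand), had 894 and 903 counts in WT, 655 and 508 counts in SF1-IR, and 181 and 216 counts in Hrb87F-IR. Every Hrb87F-IR value was below every other one, and use fell by 1.52 (standard error 0.28, adjusted p = 0.000804 by edgeR). Its 13-nt neighbour E005 fell by 1.23 with it (unadjusted p = 8.14e-06), and the bin stood at 88.96% and 89.6% of that neighbour in WT and at 68.8% and 77.4% in Hrb87F-IR, with no call for the ratio (unadjusted p = 0.144 by limma). Mhc E002, 23 nt that begin at an annotated transcript start (chr2L:16766734-16766756, plus strand), had 7249 and 7748 counts in WT, 6755 and 4230 counts in SF1-IR, and 2916 and 2512 counts in Hrb87F-IR. Its use fell by 0.80 (standard error 0.20, adjusted p = 0.110). The change in use of its neighbour E001 was -0.94 (unadjusted p = 0.0988 by edgeR). The ratio of E002 to E001 was not called, at a change of 0.12 (standard error 0.48, unadjusted p = 0.811 by limma). The gene as a whole was at -0.87 (adjusted p = 0.0324), and the changes in use are on top of that. Under the DESeq2 model of DEXSeq neither Mhc bin was called (unadjusted p = 0.505 and 0.724).

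Scp1 E002 was the only called bin in Hrb87F-IR whose ratio to its neighbour also passed. Scp1 encodes a sarcoplasmic calcium-binding protein, and its 41-nt bin lies in the 3′UTR next to an annotated transcript end (chr2R:2932786-2932826, minus strand). It had 228 and 202 counts in WT, 442 and 225 counts in SF1-IR, and 93 and 93 counts in Hrb87F-IR, beside 80502 to 218861 counts of its neighbour. That is 0.273% and 0.251% of the neighbour in WT, 0.202% and 0.113% in SF1-IR, with 0.115% and 0.0863% in Hrb87F-IR, so that both groups lay below WT. Use fell by 1.42 (standard error 0.33, adjusted p = 0.144 by edgeR), and the ratio by 1.39 (standard error 0.34, adjusted p = 0.416 by limma). Without Hrb87F-IR replicate 2 neither was called (unadjusted p = 0.0126 and 0.0428), and the ratio also missed without any of Hrb87F-IR replicate 1 and the WT libraries (0.0158 to 0.0379).

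The remaining calls in use had few counts or were lost when 1 library was left out. Tm1 E020 rose by 0.59 (standard error 0.21, adjusted p = 1.00 by edgeR), less than its rise of 1.11 in SF1-IR, and was not called without WT replicate 1 (unadjusted p = 0.162) or without either Hrb87F-IR library (0.0425 and 0.0460). bbg E019, 16 nt in the 5′UTR of big bang, a gene for a PDZ-domain protein, had 19 and 21 counts in WT, 15 and 20 counts in SF1-IR, and 2 and 2 counts in Hrb87F-IR. Over the group the WT level was 10.04 times that of Hrb87F-IR, with a 95% exact binomial interval of 3.63 to 38.6. mRpL23 E004, 31 nt in the 5′UTR of a mitochondrial ribosomal protein gene, had 165 and 65 counts in WT, 125 and 107 counts in SF1-IR, and 46 and 48 counts in Hrb87F-IR; its call was lost without WT replicate 1 (unadjusted p = 0.229), without either Hrb87F-IR library (0.0511 and 0.0548) and without SF1-IR replicate 1 (0.0108). bbg E019 was called only when WT replicate 2 was the library left out, and otherwise had unadjusted p of 0.0140 to 0.0491. shep E005, 36 nt in the 3′UTR of an RNA-binding protein gene, had 0 and 0 counts in WT, 10 and 0 counts in SF1-IR, and 2 and 13 counts in Hrb87F-IR, which is at least 4.98-fold higher in Hrb87F-IR than a floor of 3 counts over the WT group. It reached the count minimum only through SF1-IR replicate 1 and Hrb87F-IR replicate 2, so a level above WT was built into its selection. Without WT replicate 1 or 2 its unadjusted p was 0.0519 or 0.0425.

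For the ratio to the neighbour in Hrb87F-IR, 8 of 508 short bins passed an unadjusted p under 0.01 (1.57%), beside 2.2% of all pairs, and none of the 8 had an adjusted p under 0.05 by limma (29 had an unadjusted p under 0.05). Of these, 2 rose and 6 fell. wupA E017 rose by 0.71 (standard error 0.15, adjusted p = 0.350), from 1.53% and 1.74% of its neighbour in WT to 2.698% and 2.64%; without WT replicate 1 or either Hrb87F-IR library its unadjusted p was 0.0182 to 0.0254. TpnC4 E005 was the other that rose, and Mf E013 and Scp1 E002 were among those that fell. Cka E012, 51 coding nt that begin at an acceptor in the gene for a scaffold protein of kinase complexes (chr2L:8036843-8036893, plus strand), fell by 1.32 (standard error 0.25). Its 6-nt neighbour was at 28.4% and 31.6% of the short bin in WT, 53.1% and 50% in SF1-IR, with 73.5% and 77.4% in Hrb87F-IR, and the 3 groups did not overlap. ATPsynD E002 (53 nt) fell by 0.51, ND-19 E003 (10 nt) by 0.60 and asRNA:ASTR E002 (29 nt, in a non-coding RNA) by 1.01, each with both Hrb87F-IR libraries below both WT libraries. Without WT replicate 1 none of the 8 was called, and 4 other short bins were.

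The knockdowns were also compared directly, which leaves the shared WT libraries out of the difference. Of 625 short bins, 12 differed in use at an unadjusted p under 0.01 (1.92%), beside 1.1% of all bins; 11 were higher in SF1-IR, beside 0.793% of all bins, and 1 was lower, beside 0.305%. All 12 were donor pairs, as were 459 of the 625 tested. Among the 11 was CG15822 E012, with 35 counts over the SF1-IR libraries, 1 over WT and 1 over Hrb87F-IR. It reached the count minimum only through the SF1-IR libraries, so a level above Hrb87F-IR was built into its selection. In 5′UTR 10 of 253 tested bins were called (3.95%), and in coding sequence 2 of 340 (0.588%). An adjusted p under 0.05 was reached by 4 short bins, beside 0.398% of all bins. These were wupA E017 (log2 difference 1.87, standard error 0.19, adjusted p = 3.5e-11 by edgeR), ATPsynE E003 (1.00, standard error 0.12, adjusted p = 0.000234), Tm1 E006 (1.87, standard error 0.43, adjusted p = 0.0109) and CG1674 E003 (1.58, standard error 0.38, adjusted p = 0.0234). The neighbour of Tm1 E006 also differed in use, by 1.03 (unadjusted p = 3.65e-06 by edgeR). The ratio of Tm1 E006 to that neighbour differed by 0.85 (unadjusted p = 0.0706 by limma), which did not pass. Under the DESeq2 model of DEXSeq Tm1 E006 was not called in this contrast either (unadjusted p = 0.389). CG1674 E003, 27 nt in a 5′UTR, had 166 and 191 counts in WT, 248 and 191 counts in SF1-IR, and 114 and 120 counts in Hrb87F-IR, beside a gene level that was 0.92 lower in SF1-IR than in WT. It stood at 2.71% and 3.37% of its neighbour in WT, 4.06% and 4.12% in SF1-IR, with 2.10% and 2.15% in Hrb87F-IR, and the 3 groups did not overlap. Its neighbour also differed in use between the knockdown groups, by 0.64 (unadjusted p = 0.000866), and the bin itself was 0.92 higher in use in SF1-IR than in WT (unadjusted p = 0.0198), which did not pass. Mhc E006 was 1.06 higher in SF1-IR (standard error 0.28, adjusted p = 0.0523). Its neighbour E005 was 0.97 higher in use (unadjusted p = 0.000363 by edgeR), and the ratio differed by 0.09 (unadjusted p = 0.616 by limma). The call of Mhc E006 was lost under the DESeq2 model of DEXSeq (unadjusted p = 0.648) and limma's diffSplice (0.0307). It was also lost without Hrb87F-IR replicate 1 or SF1-IR replicate 1. For the ratio to the neighbour, 11 of 508 short bins passed (2.17%), beside 3.79% of all pairs. Leaving out Hrb87F-IR replicate 1 or 2 left 5 or 7 bins called in use.

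Sarcomere genes held 16 of the short bins, and all could be tested. In use, 3 were called in SF1-IR (wupA E017, Tm1 E006 and Tm1 E020, all higher) and 3 in Hrb87F-IR (Mhc E006 and Mhc E002 lower, Tm1 E020 higher), 18.8% in each case beside 0.972% and 0.656% of all bins. These shares rest on few bins, with a pair from Tm1 in SF1-IR and a pair from Mhc in Hrb87F-IR. The share over the other bins of sarcomere genes is not given here, so the difference is not read as a trait of the short bins. Under the DESeq2 model of DEXSeq, Tm1 E006 was not called in SF1-IR (unadjusted p = 0.342). None of the Hrb87F-IR calls passed under that model (0.505, 0.724 and 0.0433 in the order named). Over the 16 bins the change had a median of 0.28 on the log2 scale for SF1-IR and of 0.11 for Hrb87F-IR, beside 0.00 over all bins in each. Of the 9 sarcomere bins called neither in use nor in the ratio to the neighbour, the 4 with the most counts are given first. up E008, 3 coding nt in the troponin T gene (chrX:13596376-13596378, minus strand), had 47683 and 39381 counts in WT, 29536 and 36550 counts in SF1-IR, and 39157 and 42801 counts in Hrb87F-IR. It stood at 14.5% and 14.4% of its neighbour in WT, 12.8% and 12.6% in SF1-IR, with 13.2% and 13.5% in Hrb87F-IR. The changes of this ratio, -0.19 in SF1-IR (unadjusted p = 0.0419 by limma) and -0.12 in Hrb87F-IR (0.167), did not pass. Tm2 E002, which begins at a transcript start of the second tropomyosin gene, had 28273 to 36473 counts, with changes in use of 0.06 and 0.05. Mf E021 had 6838 to 13517 counts, and its changes in use were -0.31 in SF1-IR and -0.24 in Hrb87F-IR (unadjusted p = 0.0979 and 0.194). Mlp60A E002, in the gene of a muscle LIM protein, had 7987 to 10150 counts and changes of -0.03 and -0.05. The other 5 had fewer counts. sals E011, in a gene that sets thin filament length, had 11 to 42 counts and changes in use of 1.43 (standard error 0.59) and 0.63 (0.59). tn E015 had 22 to 79 counts, with 0.79 and 1.05 (standard errors 0.54 and 0.54), and up E012 had 23 to 90 counts, with 0.53 and 0.66 (0.72 and 0.72). wupA E014, with 425 to 523 counts, had changes of 0.44 and 0.10, and Mf E005, with 4 to 14 counts, of 0.32 and 0.09.

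Among the 5 short bins with the most counts were also ATPsynG E003, in another ATP synthase gene, with 36636 to 57753 counts, and RpS10b E005, in a ribosomal protein gene, with 10090 to 15490 counts. Their changes in use were at most 0.01 in size for ATPsynG and 0.03 for RpS10b, and both begin at an acceptor. Genes of splicing regulators held 7 short bins: Pep E007, Rbp9 E006 and E008, heph E011, qkr54B E011, Rbfox1 E004 and fne E011. None passed in use in either knockdown by edgeR, at an unadjusted p under 0.05 as well as under 0.01. The median change of use was 0.15 for SF1-IR and -0.05 for Hrb87F-IR on the log2 scale, with counts of 4 to 366 per library, so small differences were not detectable at this depth. Rbp9 E006 and E008, 4 and 5 nt wide, stood at 1.72% to 3.17% and 2.08% to 4.57% of their neighbours, with overlapping groups.

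The levels of the genes that carry the short bins were tested with exon-bin counts summed per gene. In SF1-IR against WT, 27 of 580 were changed at an adjusted p under 0.01 by edgeR (4.66%), 10 higher and 17 lower, beside 2.68% of all 11753 genes. Leaving out any 1 of the 6 libraries left 1 to 10 of them. In Hrb87F-IR none of the 580 was called, beside 0.0596% of all genes. An unadjusted p under 0.05 was reached by 180 of the 580 in SF1-IR, beside 19.6% of all genes. In Hrb87F-IR it was reached by 144 of the 580, beside 15.2% of all genes. The 580 were selected through counts in a short bin, and they were not compared with genes of like counts. DESeq2's Wald test called 55 of them in Hrb87F-IR. The share of all genes called by that test is not given here, so its count is not read as a result about these genes. Genes that act in recognition of the 5′ splice site formed a list of 20, of which 18 were matched and tested, among them the U1 components snf, snRNP-U1-70K and snRNP-U1-C, Prp8 and SR proteins. None was called in either knockdown by edgeR at an adjusted p under 0.01. An unadjusted p under 0.05 was reached by 3 of them for SF1-IR and by 4 for Hrb87F-IR, beside 19.6% and 15.2% of all genes. DESeq2 called 1 and 2, again without the share over all genes. The log2 fold changes of the list ran from -0.41 to 0.60 in SF1-IR and from -0.87, that of Hrb87F itself, to 0.54 in Hrb87F-IR, with medians of 0.08 and 0.10.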

How the data were processed

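Poly(A) RNA of IFM was sequenced as stranded paired-end libraries. The authors mapped the reads with STAR 2.7.3a to BDGP6.22, indexed them with SAMtools 1.1 and counted them with featureCounts of Subread 2.0.0. The deposited values used here are raw counts per exon bin, raw counts per gene, and the positions and widths of the bins (other values, in nt). The strand setting and the treatment of reads that touch several bins are not given in the sources used here; a 3-nt bin can only collect reads that also cover its neighbours, so counts of adjoining bins share reads. The deposited columns of the authors' own comparisons (fold changes, p-values) were not used. Among the deposited positions, 57 records broken over lines were rejoined and 21 repeats dropped.

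The short bins, gene lists and tests were chosen with earlier results of these data known. Use was tested with edgeR 4.0.16 (filterByExpr, TMM, glmQLFit with robust fitting, diffSpliceDGE) over all bins and 6 libraries, in place of the study's DEXSeq, and called at an unadjusted p under 0.01. Standard errors of use are the log2 change over the root of F. Ratios to the 5′ neighbour were tested with limma 3.58.1 on log2 counts with a pseudocount of 0.5, for pairs with a mean of 10 or more counts in each bin. Genes were tested with glmQLFTest on summed bins, because the counts per gene did not match those sums in WT: the SD of their log2 ratio over 5516 genes was 0.916 and 1.13 in WT and 0.276 to 0.280 in the knockdowns. Named bins are those called in each comparison in order of p (up to 12 against WT and 4 in the direct contrast), called bins in genes of the sarcomere and splicing regulator lists, the 5 with the most counts and up to 4 uncalled ones in sarcomere genes. The other bins of those lists, and Mhc E006 and CG15822 E012 in the direct contrast, were named after their values were seen. Ends were compared with BDGP6.54 without moving positions. Markers of other cell types (neuron, fat body, tendon, trachea, haemocyte, gut) summed to at most 672 CPM per list. The fat body sum was 141 and 142 CPM in WT, 146 and 182 CPM in SF1-IR, and 99.7 and 98.0 CPM in Hrb87F-IR. Of that list, Lsp2 was higher in SF1-IR than in Hrb87F-IR by 0.98 on the log2 scale (standard error 0.10, adjusted p = 0.00332 by edgeR). The part of the fat body genes in the results was not tested. Alternatives were DESeq2 1.42.0, limma's voom and diffSplice, other scalings and filters, a replicate term and leaving out each library. The steps were tested on simulated data (R 4.3.3, Python 3.11.15). Sequences were not analysed here.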

Additional observations from a re-analysis of the deposited data

How the results depend on the processing

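Counts of called short bins moved by more than 1.5 times under these alternatives. For use in SF1-IR, Hrb87F-IR and the direct contrast (9, 7 and 12 called), the DESeq2 model of DEXSeq called 34, 30 and 39, of which 7, 3 and 10 were shared with edgeR, and an adjusted p under 0.05 left 5, 1 and 4. Donor pairs alone gave 3 in use in Hrb87F-IR, and 5 and 4 for the ratio in SF1-IR and Hrb87F-IR (10 and 8 called). Of the 27 and 0 host genes called, no filter gave 47 and 9, DESeq2's Wald test 105 and 55, and the deposited counts per gene 91 and 79. Shares over all bins or all genes are not given for these alternatives. Their counts therefore show only how far the calls depend on the method. Scaling by RLE or upper quartile factors changed no count of short bins, and 24 host genes were called with RLE in SF1-IR.

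Leaving out 1 library gave 8 to 11 called bins in use in SF1-IR, 2 to 10 in Hrb87F-IR (2 without Hrb87F-IR replicate 2) and 5 to 17 in the direct contrast (5 and 7 without Hrb87F-IR replicate 1 and 2). The ratio gave 8 to 14 in SF1-IR and 2 to 11 in Hrb87F-IR (4 without WT replicate 1, 2 without either Hrb87F-IR library). Host genes ranged from 1 to 10 in SF1-IR, and every left-out library moved that count, and from 0 to 0 in Hrb87F-IR. A library left alone in its group was assumed to vary like the others.

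Replicate numbers are shared by the groups, but nothing says that they mark a shared batch. Between libraries of the same number, deviations over all tested bins correlated at -0.51 for WT with SF1-IR, -0.35 for WT with Hrb87F-IR and 0.30 for the knockdowns. Over the short bins alone the correlations were -0.32, -0.14 and 0.15 in the same order. A replicate block gave 8, 5 and 10 bins in use, 10 and 6 for the ratio, and 2 and 0 host genes. A crossed replicate block gave 18, 11 and 21 in use and 13 and 8 for the ratio. The crossed block, the upper quartile factors and the ratio of donor pairs alone were chosen after seeing the data. No called bin that the text names changed its direction under the alternatives run for it; the alternatives were not tabulated for uncalled bins.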
